A study of Drosophila melanogaster with 2 samples.

Results

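The bithorax complex of Drosophila melanogaster lies on chromosome 3R and is described here by 6 genes, namely Ubx, abd-A, Abd-B, lncRNA:iab8, mir-iab-8 and MSAmiP, of the 17796 annotated genes. Peaks were assigned to the complex when their summit lay in a listed gene or between Ubx and Abd-B, with 10 kb added to each side. The resulting region, chr3R:16646623-16982236 in the dm6 build, spans 336 kb and held 21 of the 3006 peaks on the main chromosome arms in the conservative list of both replicates. It held 24 of 3457 peaks in the other thresholded list of both replicates, 23 of 1996 in the list of replicate 1 and 18 of 2128 in that of replicate 2. The limits of the region follow from gene positions, with no signal value. The listed genes themselves were chosen with earlier results of these data known.

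The study mapped by chromatin immunoprecipitation and sequencing (ChIP-seq) where the protein encoded by CG10321, joined to a green fluorescent protein tag (eGFP), was found in the genome. The fusion came from a transgene carried by strain CG10321-GFP, and it was precipitated from whole embryos aged 0 to 24 h with an antibody against GFP. There was 1 group of 2 biological replicates, with sonicated fragments of 200 to 800 bp. Both replicates carried the transgene, the sex of the embryos was not collected, and whether untagged CG10321 protein was also present is not given in the sources used here. A possible control experiment named in the labels was not analysed here. In whole embryos, binding in fewer cells and weaker binding per cell cannot be told apart. With 1 group no test between conditions was possible, and all that follows is description. The intervals given are 95% Wilson intervals that cover counting error over peaks only. Read counts were not part of the lists, and the depth behind each peak is unknown.

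The bithorax complex holds the Hox genes of the posterior thorax and the abdomen. Ubx, abd-A and Abd-B encode homeodomain transcription factors that give body segments their identity, and long stretches of regulatory DNA between and inside these genes set the segments in which each one is active. Polycomb group proteins keep the genes silent, and trithorax group proteins keep them active, through response elements rich in GA repeats (bound by the GAGA factor, the product of Trl) and in GCCAT cores (bound by Pleiohomeotic), while insulator elements separate neighbouring regulatory domains. The long noncoding RNA lncRNA:iab8 is read across the interval between Abd-B and abd-A and is the host transcript of mir-iab-8, a microRNA known to repress Ubx and abd-A. MSAmiP encodes a micropeptide known from the male accessory gland.

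The sequences at the strongest bithorax summits are given first because their letters recur in the results. Each is a 101-base window centred on a summit of the conservative list, read 5′ to 3′ on the + strand from the RefSeq copy of dm6. Capitals mark GAGAG and GCCAT on either strand, so that CTCTC and ATGGC are these motifs read on the other strand. The first 6 windows are the strongest in order of signal. The last belongs to the strongest bithorax site that held neither motif.
lncRNA:iab8 and MSAmiP intron, chr3R:16869468-16869568: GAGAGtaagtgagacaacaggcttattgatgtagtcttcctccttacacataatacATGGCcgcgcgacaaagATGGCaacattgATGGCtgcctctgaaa
lncRNA:iab8 and MSAmiP intron, chr3R:16847348-16847448: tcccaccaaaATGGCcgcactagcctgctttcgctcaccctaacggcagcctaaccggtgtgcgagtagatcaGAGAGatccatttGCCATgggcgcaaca
abd-A promoter, chr3R:16830157-16830257: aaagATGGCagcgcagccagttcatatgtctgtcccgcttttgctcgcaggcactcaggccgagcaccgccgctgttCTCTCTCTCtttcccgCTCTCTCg
lncRNA:bxd intron, chr3R:16764146-16764246: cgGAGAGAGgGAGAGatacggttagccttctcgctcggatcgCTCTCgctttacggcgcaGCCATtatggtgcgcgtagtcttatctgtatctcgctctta
Ubx intron, chr3R:16703030-16703130: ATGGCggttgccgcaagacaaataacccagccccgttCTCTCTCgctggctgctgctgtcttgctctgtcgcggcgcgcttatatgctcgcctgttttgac
Abd-B intron, chr3R:16948720-16948820: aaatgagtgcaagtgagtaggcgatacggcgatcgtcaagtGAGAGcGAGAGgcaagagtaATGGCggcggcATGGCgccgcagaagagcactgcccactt
site with neither motif, lncRNA:iab8 and MSAmiP intron, chr3R:16882543-16882643: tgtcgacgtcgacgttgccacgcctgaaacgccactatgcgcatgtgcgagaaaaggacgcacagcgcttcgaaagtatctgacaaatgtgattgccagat
Each of the 6 strongest windows held both motifs at least once. They came from Ubx, the bxd interval, the abd-A promoter, the iab8 interval and Abd-B. Strong peaks elsewhere often held these motifs too. Of the 100 strongest conservative peaks 95 lie outside the complex. GAGAG was within 50 bp of the summit at 56.8% of these 95, and GCCAT at 45.3%.

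The bithorax peaks were close together and strong for this data set. The conservative list gave 6.26 summits per 100 kb in the bithorax region, against 2.19 over all main arms and 2.04 over 3R. Neighbouring summits lay 12.4 kb apart at the median, with a range of 1.33 to 47.7 kb. The main arms were also divided into 405 windows of the same length laid end to end from the start of each arm, leaving out those that cut the bithorax region. These windows held 7 conservative summits at the median and 26 at most, and 57 held none. The count of 21 in the bithorax region was exceeded in 5 windows and equalled in 2. In the list of replicate 1 its count of 23 was exceeded in 1 window, and in the list of replicate 2 its count of 18 was exceeded in 2. The bithorax count was thus among the highest in each list, and its mean over the replicate lists was 20.5 ± 3.54 (SD, n = 2).

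**Figure D1:**
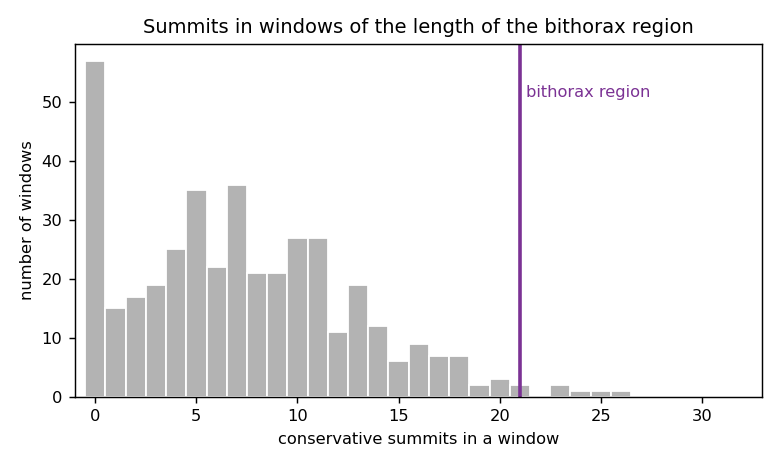
Number of windows (vertical axis) that held each number of conservative summits (horizontal axis), for 405 windows as long as the bithorax region. The vertical line at 21 summits is the bithorax region itself, and 5 windows lie to its right.

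The Antennapedia complex, the other Hox cluster of the fly, was measured in the same way from lab to Antp. It spanned 358 kb and held 19 conservative summits, or 5.31 per 100 kb. Of these peaks 15 were called in both replicates, and their median signal was 325. The clusters were thus similar in density and signal within the conservative list, with no test of the difference.

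Each peak carries a signal value, the authors' own, whose scale the sources used here do not give, so signals were compared within a list, and values of the replicate lists were set against each other at shared sites only as a description. In the conservative list the median bithorax signal was 241, against 100 over all peaks. In the other thresholded list the medians were 211 and 91.0. In the list of replicate 1 they were 137 and 70.4, and in the list of replicate 2 they were 151 and 72.6. The bithorax median was thus 1.94 to 2.41 times the median of its own list in all 4 lists. Individual bithorax signals ran from 73.3 to 4326 in the conservative list, so the complex held weak peaks as well as strong ones. The 751 strongest peaks of that list, its upper 25%, held 13 of the 21 bithorax peaks. The upper 50% held 18, and the 100 strongest peaks held 5.

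Of the 21 conservative bithorax peaks 17 overlapped a peak of each replicate list, which is 81.0% (60.0 to 92.3%), beside 45.8% of all conservative peaks. This share moved with signal across the data set. Among the 751 strongest peaks all 13 bithorax peaks were called in both replicates, beside 99.3% of the 751. Of the 8 weaker bithorax peaks 4 were called in both. Over the whole conservative list 1377 of 3006 peaks were called in both, and 746 of these were among the 751 strongest. When the 4 lists were merged, the region held 27 separate sites, of which 17 were in all 4 lists. A further 6 were in the list of replicate 1 and absent from that of replicate 2, and 1 was in the list of replicate 2 and absent from that of replicate 1. The other 3 were in neither replicate list. Of the 27 sites 25 had a peak of some score in the ranked lists of both replicates. Those lists held 84640 peaks in replicate 1 and 94184 in replicate 2 on the main arms, so such a match is a low bar. The share over all peaks is not given here.

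At the 17 sites called in both replicates, the 2 summits lay a median of 7 bp apart, with a range of 1 to 79 bp. The median gap was 15 bp over the 1369 peaks of replicate 1 that replicate 2 shared. The order of the 17 signals was nearly the same in both replicates (Spearman's rho = 0.988 across sites, which come from the same 2 libraries). The deposited signal was higher in replicate 1 at most of these sites. The ratio of the replicate 1 value to the replicate 2 value had a median of 1.41 at bithorax sites, with a range of 0.670 to 2.18, against 1.11 over all peaks called in both replicates. It was above that general median at 15 of the 17 sites. The ratio was not compared at like signal, and the strongest shared peaks outside the complex were also mostly higher in replicate 1. A higher ratio is therefore not shown to be particular to the complex. Since the scale of the signal is not given, this ratio describes the deposited values and is no measure of unequal binding.

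**Figure D2:**
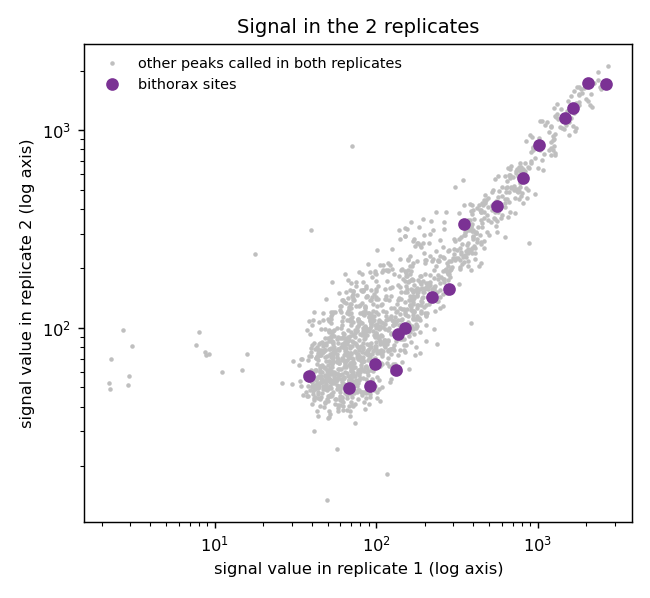
Deposited signal of each peak called in both replicates, with replicate 1 on the horizontal and replicate 2 on the vertical axis, both logarithmic. Of the 1369 shared peaks, the 17 bithorax sites are coloured points and the others grey points. The order of the bithorax signals was nearly the same in both replicates (rho = 0.988).

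The peaks were unevenly spread over the complex. The interval between abd-A and Abd-B, which is 97.2 kb long and holds all of lncRNA:iab8, held 10 of the 21 conservative summits, or 10.3 per 100 kb. Its density was 11.3 in the other thresholded list, 9.26 in replicate 1 and 8.23 in replicate 2. The abd-A gene had 8.76 in each list, so the interval was not the densest part in replicate 2. The 10 conservative peaks made up 61.5% of the summed conservative signal of the complex. The corresponding shares were 61.2% in the other thresholded list, 60.4% in replicate 1 and 61.3% in replicate 2. Most of the conservative share came from the peaks of 4326, 3782 and 2946. The 10 peaks include the abd-A promoter peak, whose summit lies just beyond the end of the abd-A gene. Without it the interval held 9 summits and 47.4% of the conservative signal, with 46.7% to 47.2% in the other lists. It then held 10 summits in the other thresholded list, 8 in replicate 1 and 7 in replicate 2. The abd-A gene of 22.8 kb held 3 summits in each list when its promoter peak was added. With this grouping the interval was the densest part in no list. Ubx itself, 77.8 kb long, held 5 summits and 12.3% of the signal. The 72.8 kb between Ubx and abd-A held 2 summits and 13.3% of the signal. The abd-A gene held 2 summits with 5.74%, or 3 with 19.8% when its promoter peak was counted with it, a grouping added after seeing the data. Abd-B held 2 summits with 7.16%. No summit fell in the 10 kb beyond either end of the complex in any of the 4 lists.

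**Figure D3:**
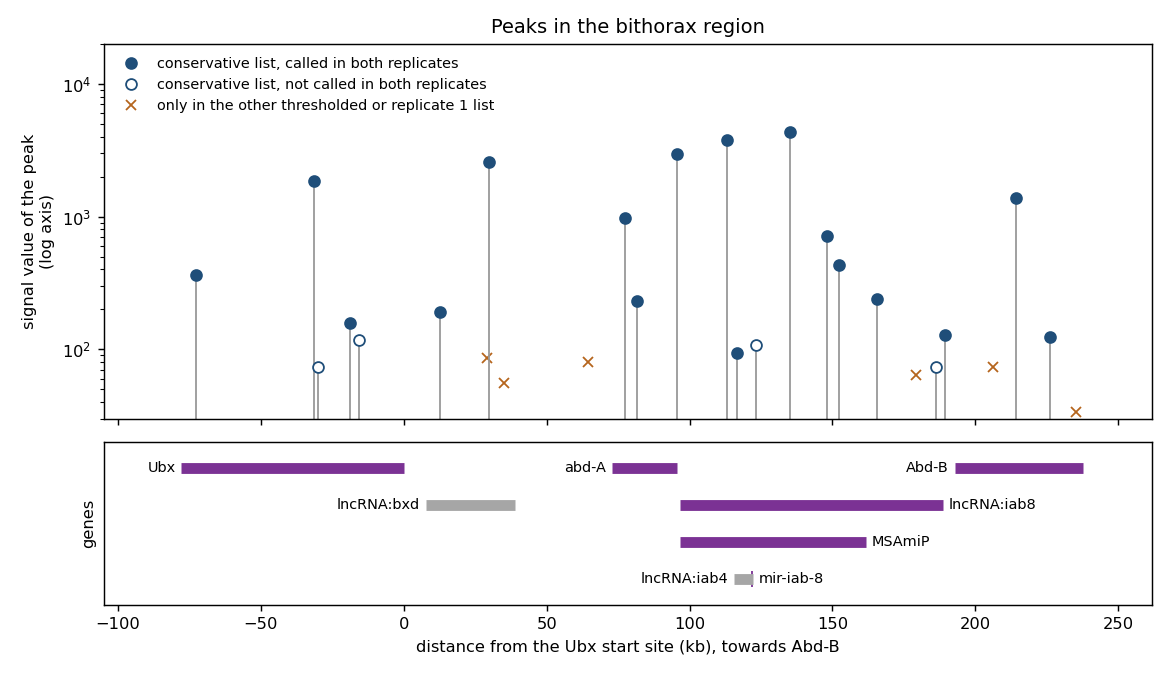
Signal of each bithorax peak (vertical axis, logarithmic) against its distance from the Ubx start site in kb (horizontal axis), with the genes of the complex drawn to scale. The conservative signals range from 73.3 to 4326, and the 2 highest lie inside lncRNA:iab8.

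Most bithorax summits lay away from annotated transcript start sites. In the conservative list 4 of 21 were within 500 bp of a start site, or 19.0% (7.67 to 40.0%), beside 47.2% of all conservative summits. The shares in the replicate lists averaged 17.0% ± 0.512 (SD, n = 2). In the Antennapedia complex 7 of 19 conservative summits were this near a start site, or 36.8% (19.1 to 59.0%). The intervals of the 2 complexes overlap. Of the listed genes, abd-A, Abd-B and lncRNA:iab8 had such a promoter summit. These were 3 of 6, beside 9.60% of all annotated genes, and the same 3 genes had one in each of the 4 lists. They have 3 (abd-A), 6 (Abd-B) and 8 (lncRNA:iab8) annotated start sites, while the other listed genes have 1 each. The share over all genes does not account for the number of start sites.

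Ubx (FBgn0003944), which specifies the posterior thorax and the first abdominal segment, occupies chr3R:16656623-16734426 on the - strand and has 1 annotated start site. Its promoter had no peak, and the summit nearest to its start site lay 12.7 kb upstream. All 5 of its conservative summits were intronic. The strongest, at chr3R:16702857-16703264, had its summit 31.3 kb from the Ubx start site and a signal of 1856 in the conservative and the other thresholded list. It had 1017 in replicate 1 and 843 in replicate 2, and ranked 79 among all conservative peaks. A second strong intronic site, at chr3R:16661783-16661986, lay 72.5 kb from the start site. Its signal was 365 in the conservative list, 222 in replicate 1 and 144 in replicate 2.

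The other 3 Ubx sites had conservative signals of 73.3 to 158. Of these, the peak with 158 was called in both replicates, with 98.9 in replicate 1 and 65.7 in replicate 2. The peak with 117 was called in replicate 1 with 67.2. In replicate 2 the same place was ranked with 43.9 but scored 352, under the lowest score of 830 found in any thresholded list. The weakest, with 73.3, was called in replicate 2 with 42.8, while replicate 1 ranked it with 33.0 and a score of 539. Both of these last sites were therefore present in each replicate's ranked list, on different sides of the threshold.

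Upstream of Ubx lies lncRNA:bxd (FBgn0020556), a noncoding transcript of the regulatory domain that serves Ubx, at chr3R:16742125-16773189. Its intron held the fourth strongest site of the complex, at chr3R:16763953-16764408. The signal was 2593 in the conservative list, 1479 in replicate 1 and 1152 in replicate 2, with ranks of 44, 44 and 41 in these lists. A smaller bxd site 724 bp upstream of one of its start sites had 192 in the conservative list, 133 in replicate 1 and 61.1 in replicate 2. This transcript is not among the listed genes, and its sites count by their position between Ubx and Abd-B.

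The abd-A gene (FBgn0000014), which acts in the anterior and middle abdomen, occupies chr3R:16807214-16830049 on the - strand and has 3 start sites. It was the one protein-coding Hox gene of the complex with a strong promoter peak. This peak, at chr3R:16830032-16830378, had its summit 158 bp upstream of the outermost start site. The signal was 2946 in the conservative list, 1659 in replicate 1 and 1300.2 in replicate 2, with ranks of 30, 31 and 30. The replicate summits lay 3 bp apart.

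Inside abd-A lay 2 further peaks, both intronic and both called in each replicate. At chr3R:16811764-16812081 the signal was 968 in the conservative list, 557 in replicate 1 and 412 in replicate 2. At chr3R:16815765-16815933 it was 231, 137 and 92.8 in the same order. The promoter peak thus exceeded both gene-body peaks in every list.

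Abd-B (FBgn0000015), which acts in the posterior abdomen and the genitalia, occupies chr3R:16927212-16972236 on the - strand and has 6 start sites. Its strongest peak was intronic, at chr3R:16948601-16948958, with 1373 in the conservative list, 807 in replicate 1 and 570.4 in replicate 2. A much weaker peak had its summit 121 bp upstream of a start site at 16960281, one of the alternative promoters of the gene. Its signal was 123 in the conservative list, 67.5 in replicate 1 and 49.6 in replicate 2. The promoter signal of Abd-B was thus far below that of abd-A in every list. Replicate 1 called 2 more Abd-B peaks, of 53.7 and 33.4, that replicate 2 ranked with scores of 51 and 12 only.

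The noncoding genes between abd-A and Abd-B overlap one another. MSAmiP (FBgn0288835, chr3R:16831115-16896293) lies almost wholly within lncRNA:iab8 (FBgn0264857, chr3R:16831116-16923231), and the hairpin of mir-iab-8 (FBgn0262290, chr3R:16856275-16856342) lies within both. All 3 are annotated on the - strand, so an overlapping peak cannot be assigned to one of them. By position, lncRNA:iab8 held 8 conservative summits, MSAmiP held 6 of those 8, and the hairpin of 68 bp held none.

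The strongest bithorax peak of the conservative list lay in the shared intron of lncRNA:iab8 and MSAmiP, at chr3R:16869269-16869719. Its signal was 4326 in both lists of both replicates, 2638 in replicate 1 and 1704 in replicate 2, with ranks of 2 in the conservative list, 2 in replicate 1 and 6 in replicate 2. The nearest start site was that of mir-iab-8, 13176 bp away. The next peak, at chr3R:16847207-16847613, was also intronic and lay 1271 bp downstream of an lncRNA:iab8 start site. Its signal was 3782 in the conservative list, 2056 in replicate 1 and 1738 in replicate 2, and its ranks were 8, 12 and 4. The replicates differed in which of these 2 peaks was higher, and both kept them among their 12 strongest peaks.

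Another pair of intronic sites in the same transcripts was called in both replicates. At chr3R:16882446-16882735 the signal was 709 in the conservative list, 348 in replicate 1 and 337 in replicate 2. At chr3R:16886569-16886797 it was 431, 284 and 158. The former is the site whose window, printed above, held neither GAGAG nor GCCAT.

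Promoter peaks of lncRNA:iab8 were weaker. One, at chr3R:16899845-16900036, had its summit 104 bp upstream of a start site at 16899832 and in an exon of longer isoforms. It had 241 in the conservative list, 152 in replicate 1 and 99.5 in replicate 2. Another, at chr3R:16923538-16923887, lay 482 bp upstream of the outermost start site at 16923231, with 129, 91.1 and 50.9 in the same order. Its summits lay 79 bp apart in the replicates, the widest gap of the complex. The promoter of MSAmiP had no peak within 500 bp, and the nearest summit, that of the exonic lncRNA:iab8 peak, lay 3.64 kb upstream.

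The mir-iab-8 hairpin had no peak on it, but 3 conservative summits lay within 10 kb. The nearest was 1491 bp upstream, with 107 in the conservative list and 59.7 in replicate 1. In replicate 2 this place was ranked with 38.1 and scored 788, just under the lowest thresholded score of 830. On the other side a peak in an exon of lncRNA:iab4, the transcript of the opposite strand, had 94.0 in the conservative list. It had 38.3 in replicate 1 and 57.2 in replicate 2, and was the one site of the 17 with the higher deposited value in replicate 2. The third was the strong site 1271 bp inside an lncRNA:iab8 start site.

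The hairpin is transcribed on both strands and gives different microRNAs. The mature sequences, read from RefSeq coordinates in dm6, are shown with bases 2 to 8, the seed that pairs with target RNAs, in capitals.
mir-iab-8-RA, - strand, chr3R:16856315-16856337: uUACGUAUacugaagguauaccg
mir-iab-8-RB, - strand, chr3R:16856278-16856299: gGAUACAUucaguauacguuua
mir-iab-4-RA, + strand, chr3R:16856281-16856302: aCGUAUACugaauguauccuga
mir-iab-4-RB, + strand, chr3R:16856315-16856338: cGGUAUACcuucaguauacguaac
No 2 of the 4 seeds were identical. Peaks have no strand, so those near the hairpin belong by position to both microRNA genes.

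The letters around the bithorax summits were searched for short motifs of proteins known to act in the complex. A match is a description of the sequence and not evidence that the factor was bound. GAGAG, on either strand within 50 bp of the summit, was found at 14 of 21 bithorax summits, or 66.7% (45.4 to 82.8%), beside 30.7% of all conservative summits. The longer GAGAGAG, each match of which contains GAGAG, was found at 7, or 33.3%, beside 11.6%. Windows of the same length centred 500 bp to each side of the bithorax summits held GAGAG in 14.3% of 42 cases and GAGAGAG in none. Such windows around all summits held GAGAG in 13.7%. At the summits of the replicates' own lists the bithorax share averaged 58.8% ± 3.25 for GAGAG and 48.3% ± 5.47 for GCCAT (SD, n = 2). GAGAG was thus at the summits of the complex more often than beside them.

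GCCAT was found at 10 bithorax summits, or 47.6% (28.3 to 67.6%), beside 22.1% of all conservative summits. Here the flanking windows of the complex held it in 33.3%, above the 17.7% of all flanking windows, so the excess at the summit over its surroundings was smaller than for GAGAG. The letters searched for Zeste, TGAGTG or its variant CGAGTG, and equally TGAGCG or its variant CGAGCG, were found at 11 summits, or 52.4% (32.4 to 71.7%), beside 26.6% of all and 11.9% of the bithorax flanking windows. GAGAG and GCCAT occurred together at 9 of 21, or 42.9% (24.5 to 63.5%), beside 7.88% of all conservative summits.

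The other motifs searched were near their general level or rare. GTGTGT, known for Combgap, was found at 14.3% of bithorax summits beside 11.3% of all. GGNGGC, a core of CTCF sites, was at 23.8% beside 14.3%. CGATA, known for BEAF-32, was at 14.3% beside 13.8%. CAGGTAG, known for Zelda, was found at 1 summit, or 4.76%, beside 0.532%. TAATTA, a homeodomain core, was found at 0 of 21, which allows a share of up to 15.5%, beside 5.66% of all.

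**Figure D4:**
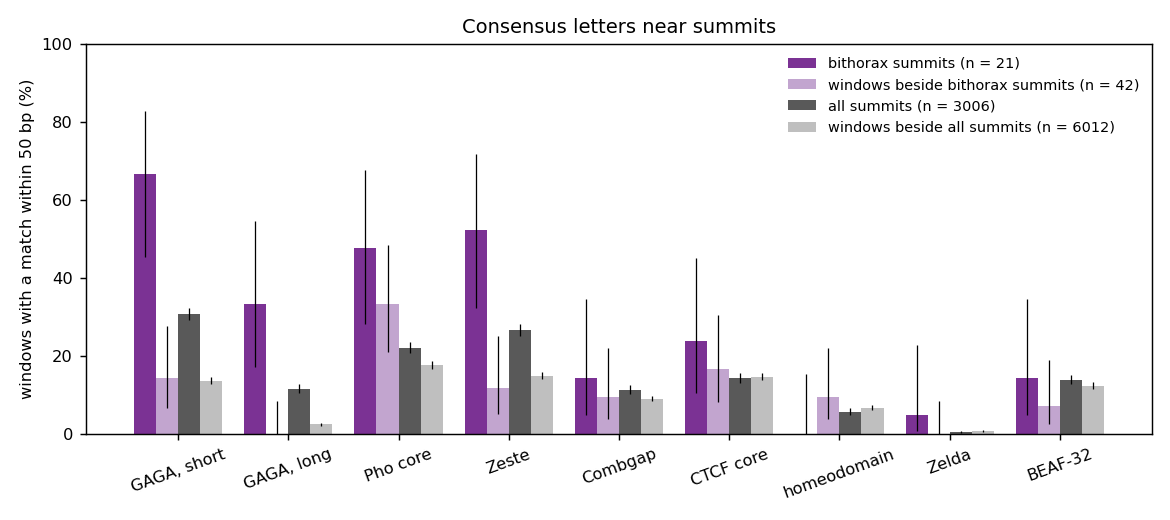
Percent of windows (vertical axis) with each motif, named by its factor (horizontal axis; the short and long GAGA forms are GAGAG and GAGAGAG, and the Pho core is GCCAT), within 50 bp of the centre, for bithorax summits (n = 21), their flanking windows, all conservative summits (n = 3006) and all flanking windows, with 95% Wilson intervals. GAGAG stands at 66.7% of bithorax summits and 30.7% of all summits.

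Base composition and signal moved with these shares. The windows at bithorax summits had a median GC content of 55.4%, against 44.6% over all conservative summits. The 751 strongest peaks had 51.5%, and the 13 of them in the complex had 56.4%. Among these peaks GAGAG was found at 61.5% of the 13 bithorax summits beside 43.8% of all. GCCAT was at 69.2% beside 31.6%, and both motifs together were at 61.5% beside 15.0%. Away from start sites GAGAG was at 58.8% of 17 bithorax summits beside 34.5% of all such summits, and GCCAT was at 47.1% beside 24.1%. The part of base composition in these differences was not tested.

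The counts of the 2 motifs differed between strong and weak bithorax sites, with overlapping intervals. Of the 8 bithorax peaks outside the 751 strongest 6 held GAGAG (40.9 to 92.9%), whereas 1 held GCCAT (2.24 to 47.1%). Among the 13 stronger ones the intervals were 35.5 to 82.3% for GAGAG and 42.4 to 87.3% for GCCAT. Outside the complex GCCAT was also rarer below the 751 strongest, at 19.0% beside 30.9%. GAGAG was rarer there too, at 26.2% beside 43.5%. The intronic Ubx site with a signal of 117 held 5 copies of GAGAG, counting overlaps, and no GCCAT. The intronic abd-A site with 968 held 3 copies of GCCAT and no GAGAG. In the Antennapedia complex GAGAG was at 63.2% of 19 summits, GCCAT at 57.9% and both at 31.6%. High shares of both motifs were therefore measured in the other Hox cluster as well.

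**Figure D5:**
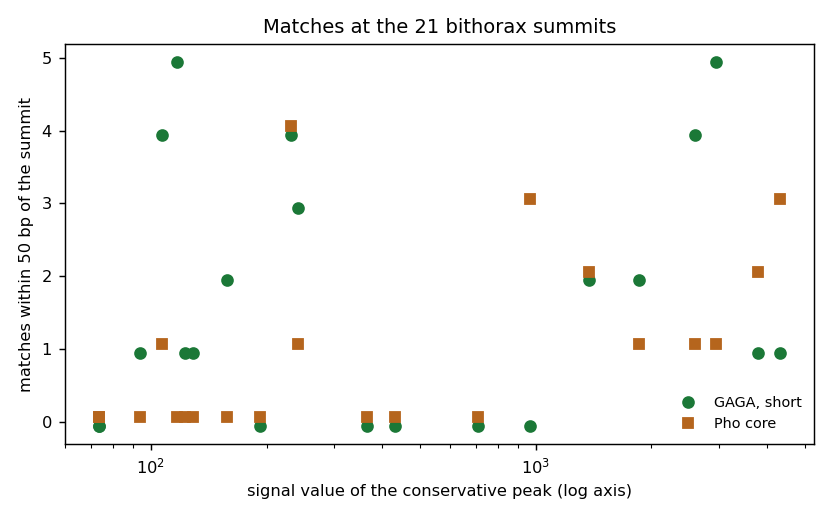
Copies of GAGAG and of GCCAT on either strand within 50 bp of each of the 21 conservative bithorax summits (vertical axis) against the signal of the peak (horizontal axis, logarithmic); points of the 2 motifs are shifted slightly apart. The 6 peaks of highest signal, from 1373 to 4326, each hold both motifs. Among the 95 of the 100 strongest peaks that lie outside the complex, GAGAG was at 56.8% and GCCAT at 45.3%.

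Genes known to act with or on the bithorax complex were examined for a promoter summit by the same rule, beside 10.9% of the 13968 protein-coding genes. Among the other Hox genes, 4 of the 5 in the Antennapedia complex had one. The signal was 2824 at lab, 1202 at Scr and 859 at Dfd, which pattern head and anterior thorax. Antp, like Ubx, had no promoter summit and several summits in the gene or within 10 kb of it, 9 in number, with a highest signal of 1857. Of the Hox cofactors, hth had a promoter signal of 2214, and exd had none.

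Of the 16 matched Polycomb group genes 5 had a promoter summit, or 31.2%. The strongest were at Su(z)2 with 2784, ph-p with 2270.0 and ph-d with 2092, which encode subunits or relatives of subunits of Polycomb repressive complex 1. Trithorax group genes and activators had 2 of 8, with 622 at Trl, the gene of the GAGA factor, and 288 at brm, a chromatin remodelling ATPase. Insulator protein genes had 2 of 8, with 367 at su(Hw) and 199 at Cp190. Of the gap and maternal regulators of the complex, cad had a promoter signal of 3325 and the other 5 had no promoter summit in the conservative list. In replicate 1 this list had 3 genes with a promoter summit, namely cad and, with weak peaks of 46.6 and 41.2, hb and gt, and in replicate 2 it had 1.

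Ubx, abd-A and Abd-B were each set beside the protein-coding genes most alike in number of conservative summits in the gene or within 10 kb, number of those called in both replicates and highest signal. The comparison ran over 6410 genes with at least 1 such summit, and likeness was the Euclidean distance over the 2 counts and the log2 of the highest signal, each scaled to unit SD. Ubx, with 5 summits, 3 of them in both replicates, was nearest to zfh1 (distance 0.0448, highest signal 1779), Dr (0.0741, 1992) and klar (0.318, 1372). Of these, zfh1 and Dr encode homeodomain proteins. Abd-B, with 4 summits, was nearest to MYPT-75D (distance 0.00302, highest signal 1369), followed by CG32772 and CG4041 at equal distance (0.0209, 1400.5). The genes nearest to abd-A, with 3 summits, were pre-mod(mdg4)-AA, pre-mod(mdg4)-N and pre-mod(mdg4)-O (distance 0.0772, highest signal 3171), neighbouring units of the mod(mdg4) locus that share the same peaks. By number of summits 76 genes had more than Ubx, 194 more than Abd-B and 452 more than abd-A, while 11 had more than the 8 of MSAmiP. These counts were not adjusted for gene length, which is 65179 bp for MSAmiP and 22836 bp for abd-A. Of the 8 of MSAmiP, 6 lie in the gene, and these also lie in lncRNA:iab8.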

How the data were processed

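Both replicates of the 1 group were used. The authors deposited peak lists in dm6 coordinates, per the labels. Column 7 of the deposited lists holds a signal value per peak, column 5 a score in whole numbers up to 1000, and column 10 of the deposited lists the distance from peak start to summit. Which aligner and peak caller made them, and in which version, is not given in the sources used here. Each replicate had a thresholded and a ranked list, and the series had thresholded and ranked lists of both replicates. A further 16 columns of the series' ranked lists, which hold per-input values without names, were not used. The conservative list was the main list.

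Peaks on unplaced sequences were left out, 6 in the conservative list. Summits were placed on Ensembl release 115 gene models, with 23630 start sites on the main arms, and sequence was read from the RefSeq copy of dm6. Peaks sharing at least 1 bp were called overlapping. A gene with a summit within 500 bp of a start site counted as having a promoter summit. Motif windows held 50 bp to each side of a summit. No aligned reads or counts were given, so depth is unknown. Python 3.11.15, numpy 2.4.6, scipy 1.17.1 and matplotlib 3.10.9 were used, and the counting code was tested on simulated data with known answers.

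Named in full were the 10 strongest conservative peaks of the region and each within 500 bp of a member's start site, up to 3 genes of each other list by promoter signal, and the 3 most alike genes. Further sites, lncRNA:bxd among them, and the printed windows after the 3 strongest were chosen after their values were seen. So were the comparisons among the 751 strongest peaks and away from start sites. The members and gene lists were chosen with earlier results of these data known. The symbol calypso was not matched, so 16 of 17 Polycomb group genes entered. Positions of known response elements and insulators were not in the gene models used here, so peaks were not assigned to them. Alternatives were the other lists, flanks, distances, overlaps and motif windows, and each replicate alone.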

Additional observations from a re-analysis of the deposited data

How the results depend on the processing

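Of 35 alternative values for 6 results, 30 stayed near the reported value and 5 moved. The results are counts, shares and medians without a direction, so none could reverse. Every share taken as near lay inside the Wilson interval of the reported share. These intervals were wide, such as 60.0 to 92.3% for peaks called in both replicates and 7.67 to 40.0% for summits near start sites. Beside 18 listed genes with a promoter summit, counts of 13 to 22 were taken as near. Staying near is therefore a loose standard. Counting peaks of any score in both ranked lists, an alternative added after seeing the data, raised the share called in both replicates from 81.0% to 100%. The ranked lists are so long that this match is a low bar, and the share over all conservative peaks is not given here. The value of 100% is therefore no trait of the complex. The median bithorax signal of 241 was 211 in the other thresholded list, and 137 to 151 when either replicate was left out, each on the scale of its own list. GAGAG fell from 66.7% to 33.3% of bithorax summits with 25 bp to each side, beside 19.0% of all summits; the narrower window holds fewer letters. The number of bithorax peaks ran from 18 to 24 over its alternatives. No paired analysis was possible because there is 1 group. Shares over 21 peaks have wide intervals, and unknown depth limits statements on weak or uncalled sites: 6 of the 27 sites were absent from the conservative list.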

Other observations

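The printed windows share more than GCCAT: in most of them the bases before it on its own strand read GCNGCCAT, with N any base. These letters were chosen after the windows were seen, so the counts are a description and no support for a motif. On either strand within 50 bp, GCNGCCAT was found at 5 of the 6 strongest bithorax summits and at 4 of the other 15, together 42.9% of 21 (24.5 to 63.5%). Over all 3006 conservative summits the share was 2.93%. Among the 95 of the 100 strongest peaks that lie outside the complex it was 7.37%, and 4.74% among the 738 of the 751 strongest that lie outside it. Flanking windows held it in 1.45% over all summits and in 1 of 42 cases in the complex. In the Ubx intron, the exception among the 6, the GCCAT core stands without the preceding letters. The strongest site and the intronic abd-A site with a signal of 968 each held 2 copies.

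Of the 6 sites outside the conservative list, 2 in the other thresholded list were in neither replicate list, with signals of 55.2 in the bxd intron and 63.8 in an lncRNA:iab8 intron. Another 2, of 80.8 between bxd and abd-A and 73.1 in Abd-B, were called in replicate 1 as well, with 49.5 and 53.7. The remaining 2 were in the list of replicate 1 alone, with 85.9 and 33.4, the former next to the strong bxd site and above the median of 70.4 of its list.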
